A study of Homo sapiens with 6 samples.

Results

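Enzymes and a chaperone of collagen maturation were examined in A375, a human melanoma cell line, as 10 genes picked by symbol from a table of 28395 genes. They are the collagen prolyl 4-hydroxylase alpha subunits P4HA1, P4HA2 and P4HA3, the lysyl hydroxylases PLOD1, PLOD2 and PLOD3, the lysyl oxidases LOX, LOXL1 and LOXL2, and the chaperone SERPINH1. All 10 were found. The RNA-seq data come from 6 libraries of wild-type A375 cells, grown in DMEM with fetal bovine serum. In 3 libraries the cells had received 0.01% ozonated olive oil (OZO) for 6 h, and in the other 3 they had received 0.01% of the parent olive oil (OLO) for 6 h, which served as control. All cells had therefore received an oil, and all 6 libraries are of 1 cell line.

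The study asked how OZO changes gene expression relative to OLO. The values used here are the authors' means of log2 CPM (counts relative to library size) over all 6 libraries, OZO and OLO together. Such a mean cannot separate the groups, and the spread between libraries is unknown here, so neither a difference between OZO and OLO nor a test is given. What follows describes how strongly each member was expressed in these cells.

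Newly made collagen chains are modified in the endoplasmic reticulum before they fold into a triple helix. Prolyl 4-hydroxylases add the hydroxyl groups that keep the helix stable at body temperature, and lysyl hydroxylases prepare lysines for sugar attachment and cross-links. Both families are oxygenases that use iron, 2-oxoglutarate and ascorbate. SERPINH1, also known as HSP47, binds the folded procollagen until it leaves for the Golgi. Outside the cell, the copper enzymes of the lysyl oxidase family oxidise lysines of collagen and elastin, from which cross-links form. Stiffening of the matrix by these enzymes is a known feature of solid tumours.

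Depth was read from the table itself. The lowest value, which 7012 genes share, stands for no read in any library, because 100% of the 6402 lowest genes above it fell within 0.001 of an odd whole number once the mean was turned back into a product of counts. The corresponding geometric mean library size was 18409903 counted fragments after the authors' scaling, while the size of each library is unknown here. A read was found for 21383 genes (75.3%), and 13773 (48.5%) averaged at least 10 reads per library. Reads per library are geometric means over the 6 libraries. They lie below the arithmetic mean wherever libraries differ. Levels are given as CPM per kilobase of the canonical transcript. The ranges beside them are 95% exact Poisson intervals on 6 times the mean reads, which cover counting error only. None is given under 10 reads, where a geometric mean falls well short of the total. The labelled identity was checked on markers of melanocytes and melanoma. SOX10 had 919 reads per library and MITF had 499. AXL, the highest of this list, had 4915. KIT had 0.100 reads, the pigment genes PMEL and DCT had 5.75 and 4.74, and TYR had none. KRT1 and MS4A1, markers of keratinocytes and B cells, had no read either. Of 14 melanocyte and melanoma markers, 10 had at least 10 reads per library. Markers of other cell types were not all absent. At least 10 reads were reached by 2 of 6 keratinocyte and 3 of 6 fibroblast markers. For endothelial and immune markers it was 2 of 4 and 2 of 5. Of all genes, non-coding ones included, 48.5% reached 10 reads, so this cut-off alone does not separate cell types. KRT10 (469 reads) and CD68 (603 reads) were the strongest, followed by LUM (87.6) and KRT14 (77.5), and PTPRC had 1.07.

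All 10 members had a read, and 8 of them averaged at least 10 per library, against 75.3% and 48.5% of all genes. Across those 8 the mean ranged from 78.1 to 3783 reads. The 75.3% and 48.5% include non-coding genes, whereas all members are protein-coding, so they are not compared like for like. Among protein-coding genes with a RefSeq promoter, 1884 had no read and 3162 had a mean under 10. At least 10 reads were reached by 4842 under and 5445 at or above the median level given next. The median gene with at least 10 reads had a level of 7.37 CPM per kilobase, and 6 members stood at or above it. These were the 3 lysyl hydroxylases, P4HA1, SERPINH1 and LOXL2. P4HA2 stood just under it, LOX far below it, and P4HA3 and LOXL1 had fewer than 10 reads. The 10 levels spanned from 0.0418 to 54.8, with a median of 21.6.

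**Figure D1:**
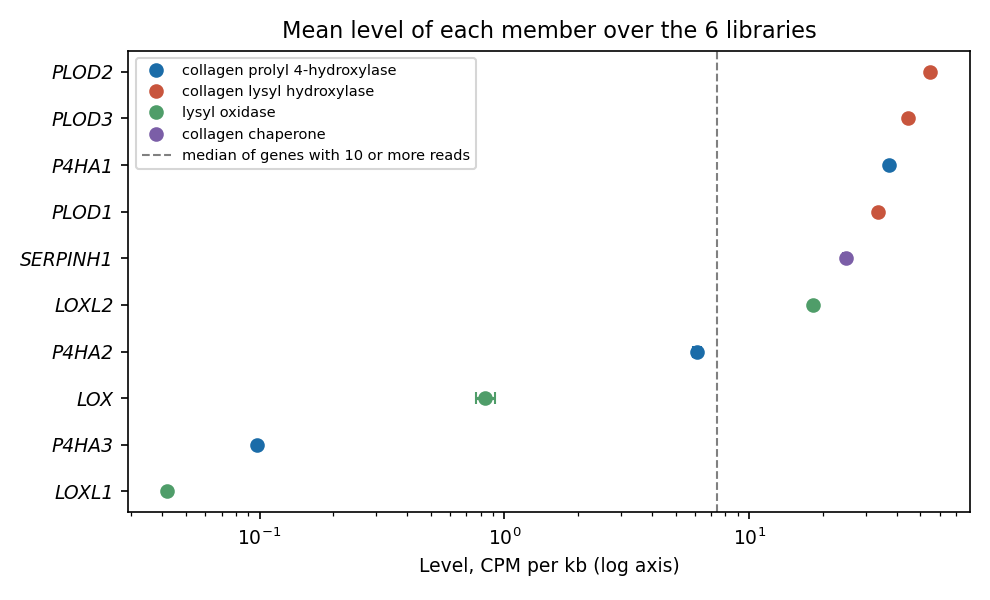
Mean level of each member over the 6 libraries (OZO and OLO together), in CPM per kilobase of canonical transcript on a log axis, with 95% Poisson intervals for counting error only (none under 10 reads) and the median of genes with at least 10 reads as a dashed line. Intervals of the well-read genes are narrower than their points. Of the members, 6 lie to the right of the line, and LOXL1 is the lowest at 0.0418.

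The lysyl hydroxylases were the most evenly expressed family. PLOD2 (chromosome 3, 146069440 to 146161184), which hydroxylates the telopeptide lysines that become cross-links, had 3783 reads per library and a level of 54.8 (54.1 to 55.5). Of the genes with at least 10 reads, 90.7% had a lower level. PLOD3 (chromosome 7, 101205984 to 101217581), which also carries glycosyltransferase activity, had 2319 reads and a level of 44.7 (43.9 to 45.4). PLOD1 (chromosome 1, 11934717 to 11975537), which acts on lysines within the helix, had 1832 reads and a level of 33.4 (32.8 to 34.1). PLOD2 thus stood 1.64-fold above PLOD1, but at 0.757 times its level with all annotated exons as length, and the family's summed level of 133 was shared as 41.2%, 33.6% and 25.2% for PLOD2, PLOD3 and PLOD1. The place of PLOD2 depended on the length used, since its annotated exons cover 14518 bases against a canonical transcript of 3749. Per base of all annotated exons it stood at 14.2, under PLOD3 at 22.2 and PLOD1 at 18.7.

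The prolyl 4-hydroxylase alpha subunits were unequal. P4HA1 (chromosome 10, 73007217 to 73096866) had 1878 reads per library and a level of 37.2 (36.5 to 37.9), above 85.5% of genes with at least 10 reads. P4HA2 (chromosome 5, 132190147 to 132227853) had 512 reads and a level of 6.12 (5.91 to 6.34), 6.08-fold below that of P4HA1. This ratio was 3.66 per coding length and 12.0 per base of all annotated exons. P4HA3 (chromosome 11, 74250146 to 74311640) had only 4.04 reads per library and a level of 0.0974. P4HA1 made up 85.7% of the summed level of the alpha subunits, P4HA2 14.1% and P4HA3 0.224%. The share of P4HA2 was 21.4% per coding length and 7.68% with all annotated exons. P4HB, the beta subunit with which each alpha subunit assembles and a protein disulfide isomerase in its own right, had 9303 reads and a level of 207. This was 4.78-fold the sum of the alpha subunits, and 1.27-fold with all annotated exons as length.

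The lysyl oxidases were also unequal. LOXL2, which is also described in the nucleus, had 1252 reads per library and a level of 18.3 (17.9 to 18.7). LOX (chromosome 5, 122063195 to 122078259), the founding enzyme of the family, had 78.1 reads and a level of 0.836 (0.762 to 0.916), so that LOXL2 stood 21.9-fold above it. Per coding length LOX had a level of 3.39, and the ratio was 8.63. LOXL1 (chromosome 15, 73926462 to 73952136), known for its role in elastic fibres, had 1.80 reads and a level of 0.0418. The remaining genes of the family lay between these values, LOXL3 with 591 reads and a level of 8.70 and LOXL4 with 225 reads and a level of 3.40. Over all 5 genes of the family LOXL2 held 58.5% of the summed level, LOXL3 27.8%, LOXL4 10.9%, LOX 2.68% and LOXL1 0.134%. Per coding length the share of LOX was 6.48%. The summed level of the lysyl hydroxylases, 133, was 4.25-fold that of the lysyl oxidases, 31.3, and 2.43-fold with all annotated exons as length. Of the annotated exon bases of LOXL3, 25.5% are shared with genes on the opposite strand (HTRA2 and DOK1), and whether counting used strand is not stated, so its value is uncertain. For the members this share was at most 9.21%, in LOXL1, where LOXL1-AS1 runs on the opposite strand and itself had 2.01 reads.

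SERPINH1 (chromosome 11, 75562253 to 75572783) had 942 reads per library and a level of 24.9 (24.2 to 25.5), above 78.3% of genes with at least 10 reads. It fell between PLOD1 and LOXL2. With the longest transcript or all annotated exons as length its level was 14.5 or 8.15, and it then stood below LOXL2. In the order by level, PLOD2, PLOD3, P4HA1, PLOD1, SERPINH1, LOXL2, P4HA2, LOX, P4HA3 and LOXL1, no neighbours among the first 8 had overlapping counting intervals. P4HA3 and LOXL1 have none to compare. Neighbours among the first 6 differed by 1.11-fold to 1.36-fold, and whether such steps exceed the spread between libraries cannot be told from the means.

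For the weakest members the mean fixes the product of the counts and so bounds the reads themselves. For LOXL1 the product over libraries of 2 times the count plus 1 was 9555. It has 36 sets of counts, none with a read in all 6 libraries, so at least 1 library had no LOXL1 read, and the 6 libraries held at least 15 reads together. For P4HA3 the product was 561561, which 135 sets of counts give. The smallest total was 28 reads, with 1 read in the lowest and 8 in the highest library. A read in every library was possible in 1 of these sets. Reads were thus assigned to both genes, at a depth at which which of the 6 libraries held the reads cannot be told. Genes on the opposite strand share 5.11% of the exon bases of P4HA3 (PPME1 and P4HA3-AS1) and 9.21% of those of LOXL1 (LOXL1-AS1). The strand setting of the counting is not stated, and whether any of these few reads came from those genes was not tested.

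Other genes of collagen biosynthesis and oxygen sensing were taken from lists of 61 in all, of which 60 were in the table and 60 had a read. At least 10 reads were reached by 52 of them, and 32 stood at or above the median level of 7.37. Of all genes 48.5% reached 10 reads, but this share includes non-coding genes, whereas the listed genes are protein-coding. Their median level was 9.83, against 21.6 for the members, with the canonical transcript as length. With all annotated exons the members' median was 9.75, and that of the lists was not computed. The prolyl 3-hydroxylation complex had all 6 genes above 10 reads, from P3H2 at a level of 3.38 to PPIB, a proline isomerase, at 121. Of the exon bases of PPIB, 26.6% overlap SNX22 on the opposite strand. Of the 8 genes of collagen glycosylation and folding, SPARC, a collagen-binding matrix protein, was highest at 166 and the glycosyltransferase COLGALT2 lowest at 0.772. The 6 export genes ranged from MIA2 at 6.40 to SEC13 at 60.2. Procollagen processing had the lowest median level of these lists, 1.31. Of its 10 genes 7 reached 10 reads, against 48.5% of all genes, non-coding ones included. Its extremes were FN1, which encodes fibronectin, at 19.4 and the propeptidase ADAMTS14 at 0.00323. Among 9 genes of cofactor supply, the transferrin receptor TFRC was highest at 264 and the ascorbate transporter SLC23A1 lowest at 0.745. Of the 6 genes of oxygen sensing, EGLN1 was highest at 45.8, although 55.8% of its exon bases are shared with another annotated gene on the same strand and its value is uncertain. EGLN2 and P4HTM had 0.586 and 0.355 reads per library. For EGLN2, 30.6% of the exon bases are shared with other genes, among them the read-through gene RAB4B-EGLN2, so its value is uncertain.

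The substrates of these enzymes were expressed at very different levels. COL4A2 and COL4A1, the chains of basement membrane collagen, had levels of 32.0 and 21.8, on either side of that of SERPINH1. This placement depends on the length used. COL18A1, another basement membrane chain, had a level of 0.926. Of its exon bases 18.5% overlap SLC19A1 on the opposite strand, so its value is uncertain. COL5A2 had a level of 10.6 and COL5A1 of 2.52, and COL6A1, COL6A2 and COL6A3 had 12.5, 4.98 and 1.64. The chains of fibrillar collagens I and III were weak, with COL1A1 at 0.205 (22.3 reads per library), COL3A1 at 0.00970 (0.981 reads) and COL1A2 at 0.00108 (0.100 reads). Elastin, ELN, had 1.97 reads. COL4A2 stood 156-fold above COL1A1, or 79.5-fold with all annotated exons as length. Of the 12 substrate genes 4 lay at or above the median level, and 3 had fewer than 10 reads.

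**Figure D2:**
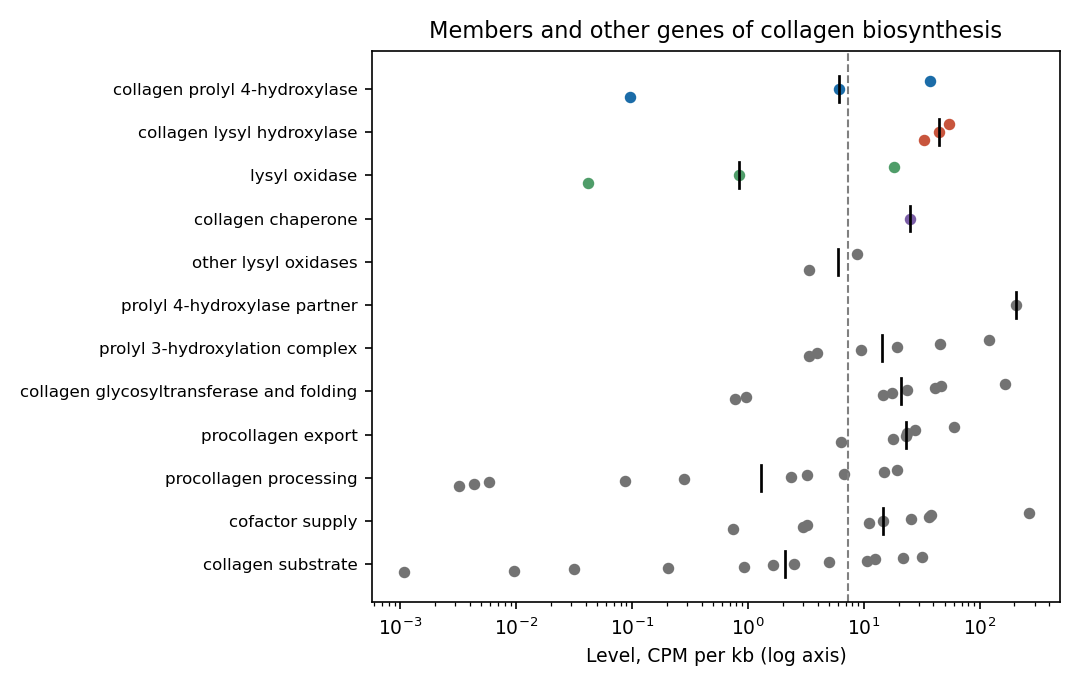
Levels of the members (coloured by family) and of other genes of collagen biosynthesis (grey), averaged over the 6 libraries, in CPM per kilobase on a log axis. Each point is a gene, the black bar is the median of its list and the dashed line the median of genes with at least 10 reads. Lysyl hydroxylases lie to the right of the line, whereas prolyl 4-hydroxylases, lysyl oxidases and substrates spread over both sides.

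The sequence before the transcription start was compared with these levels, as CpG-rich promoters are known to belong mostly to widely expressed genes. RefSeq promoters (GRCh38.p14) were found for 8 members, all but P4HA3 and LOXL2, and CpG dinucleotides were counted in the 250 bases before the start. Among protein-coding genes the median was 3 in 1884 genes with no read, 8 in 3162 genes with a read but a mean under 10, 20 in 4842 genes with at least 10 reads and a level under the median, and 21 in 5445 genes at or above it. PLOD2 had 30 CpGs, P4HA1 25, SERPINH1 20, PLOD3 19 and PLOD1 17. P4HA2 had 9, although the start in the table lies 762 bases inside the gene's outer end. LOX and LOXL1 had 13 each. Of these 8, the 5 members at or above the median level had 17 to 30 CpGs and the other 3 had 9 to 13, which is a description and not a test. The split holds for the counts only. Relative to the number expected from the C and G content of the window, LOX (0.692) stood above PLOD3 (0.681) and PLOD1 (0.559). P4HA2 (0.482) and LOXL1 (0.469) stayed below all 5. Windows are printed for PLOD2 and P4HA1, the highest lysyl and prolyl hydroxylase with the canonical transcript as length, and for LOX and LOXL1. They run 5′ to 3′ on the strand of the gene, with CG in capitals. PLOD2 lies on the minus strand at chr3:146161185-146161434, P4HA1 on the minus strand at chr10:73096867-73097116, LOX on the minus strand at chr5:122078260-122078509 and LOXL1 on the plus strand at chr15:73926212-73926461.
PLOD2: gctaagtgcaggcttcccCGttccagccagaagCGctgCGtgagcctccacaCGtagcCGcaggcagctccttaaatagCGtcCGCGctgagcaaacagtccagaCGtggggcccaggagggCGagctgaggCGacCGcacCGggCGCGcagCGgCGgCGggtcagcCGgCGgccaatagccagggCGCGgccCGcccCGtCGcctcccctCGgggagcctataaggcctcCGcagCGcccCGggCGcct
P4HA1: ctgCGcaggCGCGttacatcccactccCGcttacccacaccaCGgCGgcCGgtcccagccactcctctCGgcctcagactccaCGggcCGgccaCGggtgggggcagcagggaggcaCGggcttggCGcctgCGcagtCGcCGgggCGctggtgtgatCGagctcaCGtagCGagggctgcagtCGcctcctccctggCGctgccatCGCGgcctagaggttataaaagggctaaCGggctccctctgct
LOX: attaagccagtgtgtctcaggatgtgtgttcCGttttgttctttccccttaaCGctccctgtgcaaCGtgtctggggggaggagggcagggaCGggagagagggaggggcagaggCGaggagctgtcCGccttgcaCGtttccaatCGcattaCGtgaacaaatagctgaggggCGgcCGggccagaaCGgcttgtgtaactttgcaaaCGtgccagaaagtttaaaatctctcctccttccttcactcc
LOXL1: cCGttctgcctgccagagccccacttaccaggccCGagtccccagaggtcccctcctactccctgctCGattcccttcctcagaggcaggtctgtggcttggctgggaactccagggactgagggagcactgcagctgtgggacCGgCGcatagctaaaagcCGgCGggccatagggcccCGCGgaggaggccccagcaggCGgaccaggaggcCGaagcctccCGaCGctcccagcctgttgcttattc

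In these windows LOX and LOXL1 hold the same number of CpGs at levels of 0.836 and 0.0418. Of their 13 CpGs, 8 in LOX and 10 in LOXL1 lie in the 125 bases nearest the start. PLOD2 had 20 of 30 there, and P4HA1 13 of 25.

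**Figure D3:**
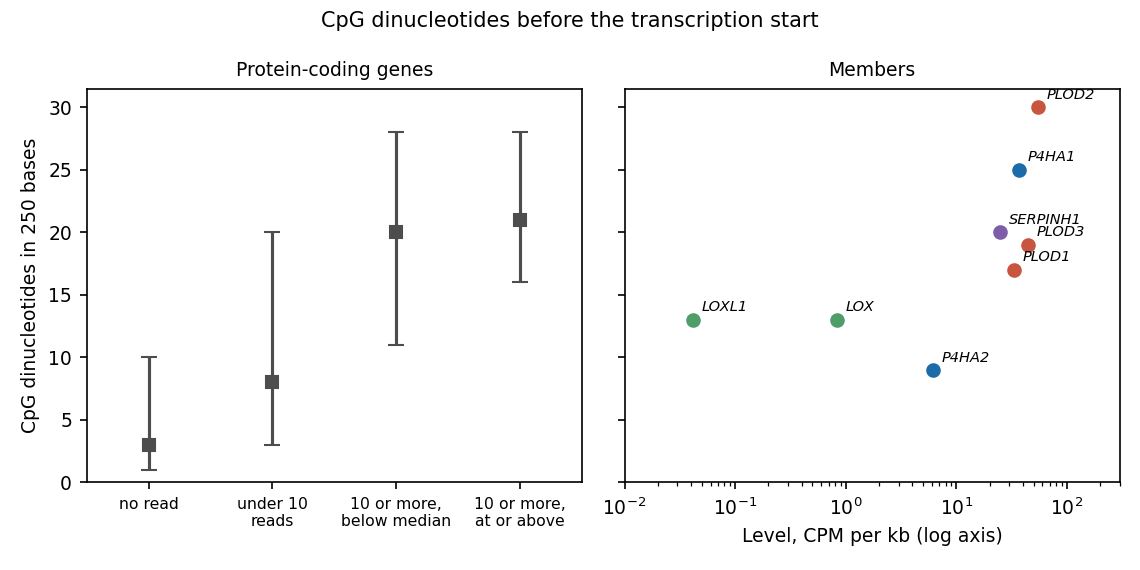
CpG dinucleotides in the 250 bases before the transcription start. On the left, squares are medians and bars the quartiles of protein-coding genes by their reads and level, and on the right each point is a member, against its level in CPM per kilobase on a log axis. Medians run from 3 in genes with no read to 21 in those at or above the median level, and PLOD2 has 30.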

How the data were processed

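RNA of A375 cells gave 3 OLO and 3 OZO strand-specific libraries. Per the labels and the methods, the authors aligned reads to hg38 with HISAT2 2.1.0, assigned them to genes with featureCounts 2.1.1 and ran limma-voom 3.58.1. Normalization factors, filters and strand settings of the counting are not given in the sources used here. The deposited table holds, per gene, a log2 CPM averaged over the 6 libraries (voom first adds 0.5 to each count) and 5 columns of the authors' own comparison (log fold change, moderated t, p-value, adjusted p-value and log odds). Those 5 columns were not used. Values per library were not analysed here, so no test was run. The paper describes its A375 transcriptome data as coming from 3 independent experiments.

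Reads per library were recovered as 0.5 times the ratio of a gene's mean CPM to that of genes without a read, less 0.5. They were divided by library size and by the length of the canonical transcript in GENCODE 44, matched by Ensembl identifier (13313 of 13773 genes with at least 10 reads, 96.7%). Coordinates are those of RefSeq GRCh38.p14. Members and lists were chosen with earlier results of these data known. Named are all members, the highest and lowest gene of each pathway list and listed genes with no read; other list genes were chosen after their values were seen. A simulation with the same formula checked only the arithmetic of the recovery. It included no normalization factors or filter, so it does not test those. Scripts ran in Python 3.11.15 with scipy 1.17.1.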

Additional observations from a re-analysis of the deposited data

How the results depend on the processing

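No paired analysis was possible because the values used here are means over all libraries. For the same reason leaving out replicates, other normalizations and any fit of OZO against OLO were not run, and how far 1 library decides a level is unknown. The identity between the members' proteins, planned at the start, was not computed.

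The number of members with a read stayed at 10 with the most frequent value taken as no read. The number at or above the median level was 6 and stayed at 6 or 7 under the alternatives in length, filter and gene type. The median level of the members, 21.6, became 35.0 per coding length, 16.4 with the longest transcript and 9.75 with the union of exons, and it was 21.6 with voom's 0.5 left in. The median of all genes with at least 10 reads moved too, from 7.37 to 18.5, 6.38 and 4.46. With the longest transcript 5 of the 10 members kept their place in the order and PLOD3 led. With the union of exons 5 did and P4HA1 led. With coding length, and with no length, 8 did and PLOD2 led. P4HA2, LOX, P4HA3 and LOXL1 were the lowest, in that order, under each of these lengths. Depth limits P4HA3 and LOXL1, which averaged under 10 reads.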
